A study of Mus musculus with 8 samples.

Results

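In the hippocampus of mice homozygous for the Wfs1tm1Koks allele, 116 of 24078 entries of the gene count table formed a set of strongly elevated transcripts that belong to no single gene family. The members were chosen by their own measured values: a mean CPM (a gene's count divided by its library's total count, times 1000000) in the homozygous libraries at least 8 times the wild-type mean, a homozygous mean of at least 5 CPM, and a lowest homozygous library above the highest wild-type library. Of 127 entries that met these thresholds (0.527% of all entries), 11 were left out by name: Trpm8, Cpne2, Tpm2, Rab3b, Sesn2, Rest, Camsap3, Taf13, Col5a2, Hist4h4 and Kcnj5. The difference between genotypes is therefore how the members were found, and it is described below without a test.

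Wolframin, the product of Wfs1, spans the membrane of the endoplasmic reticulum, and its loss in humans causes Wolfram syndrome, a disorder with diabetes, optic atrophy and neurological disease. In the brain the protein takes part in calcium handling of the endoplasmic reticulum and in its stress signalling, and in the hippocampus it is abundant in pyramidal neurons of the CA1 field. The 116 members are mostly genes without an established place in that biology: they span enzymes, transcription factors, secreted proteins, receptors, genes best known from immune cells, testis or sensory epithelia, and non-coding RNAs.

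The study held 8 libraries of ribosome-depleted total RNA from whole hippocampus, 4 from wild-type mice (replicates 7 to 10) and 4 from mice homozygous for the mutant allele (replicates 15 to 18), each a separate animal per the series' design text. The mutation is carried in the germ line and so is not limited to one cell type, and a single allele was studied. The labels give neither age, sex, litter nor batch. All groups share one tissue, one library kit and one sequencing platform. Below, CPM values are listed in the order of replicates 7 to 10 for wild-type and 15 to 18 for homozygous libraries, errors are SD over 4 libraries (n = 4 in each genotype), and coordinates are those of mm10 (GRCm38).

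Library totals ran from 3250949 to 6747411 counts. Wfs1 (chr5:36966104-36989205, minus strand) had 50.8, 42.5, 56.6 and 43.5 CPM in wild-type and 18.1, 18.8, 14.1 and 12.5 CPM in homozygous libraries, and the mean fell from 48.3 ± 6.64 CPM to 15.9 ± 3.05 (log2 fold change -1.81, SE 0.16, adjusted p = 2.62e-05, edgeR quasi-likelihood, Benjamini-Hochberg), so the labels and the targeted gene went together. Across all 20478 genes tested, 20.7% were called higher and 20.4% lower at an adjusted p under 0.05 (edgeR), and in 28.8% all homozygous libraries lay above all wild-type libraries. Of 14 markers of hippocampal pyramidal and granule neurons, 7 were called lower and 0 higher. Their summed level ran from 2202 to 2971 CPM in wild-type and from 1696 to 2027 CPM in homozygous libraries. The targeted gene Wfs1 is itself on this list, is among those called lower and is part of the sum. In whole tissue, fewer cells of a type and less RNA per cell cannot be told apart. Summed markers of choroid plexus, a tissue next to the hippocampus, overlapped between genotypes (362 to 1171 CPM and 168 to 975 CPM), with 1 of 9 called higher and 2 lower. Summed markers of striatum, meninges, skeletal muscle and red blood cells also overlapped between genotypes. The sums did not overlap for markers of sensory ganglia (126 to 146 CPM in wild-type and 178 to 184 CPM in homozygous libraries, 3 of 7 called higher and 1 lower), thalamus (104 to 129 CPM and 134 to 161 CPM, 0 of 4 called) and hypothalamus (11.8 to 14.4 CPM and 15.1 to 23.7 CPM, 0 called of the 1 tested). These sums, and those of other marker lists below, are CPM on library totals. On that scale the median over all genes tested was itself higher in homozygous libraries (23.5 CPM, against 19.0 CPM in wild-type). A gap between sums can therefore reflect this general shift. The part of the tissues listed here in the values below was not tested.

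Low-count filtering kept 114 members, with Spink4 and E330014E10Rik removed, and all 114 that were kept were called higher beside 20.7% of all genes tested; as the rule used the same contrast, nothing is read from that count. Together the members took 0.196%, 0.244%, 0.225% and 0.209% of all counts in the wild-type libraries and 5.15%, 4.26%, 3.42% and 5.45% in the homozygous libraries, a mean of 0.218 ± 0.0209% against 4.57 ± 0.920%. A single gene, Pm20d2, held 2.28%, 0.910%, 0.430% and 2.33% of the homozygous counts. Without it the other members took 0.186% to 0.222% of wild-type and 2.88% to 3.35% of homozygous counts. Their pooled level thus differed little between homozygous animals, although, as shown further on, the individual members differed widely.

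The fold of the means ran from 8.03 to 308 with a median of 13.5, and 87 members reached 10-fold, 30 reached 20-fold and 11 reached 40-fold. Homozygous means ran from 5.43 to 14879 CPM (median 162) and wild-type means from 0.249 to 194 CPM (median 12.1). The homozygous mean was at least 100 CPM for 75 members and at least 1000 CPM for 6, which were Pm20d2, E2f7, Fam19a5, Fkbp15, 4930523O13Rik and Zc3h13. Per kilobase of exon, the median member was at 4.23 CPM in wild-type libraries, below the median of all genes tested (5.00 CPM per kb), and at 55.5 CPM per kb in homozygous libraries, where the median of all genes was 6.41 CPM per kb. In wild-type libraries 65 of the 110 members of known length were under the median density of all genes.

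**Figure D1:**
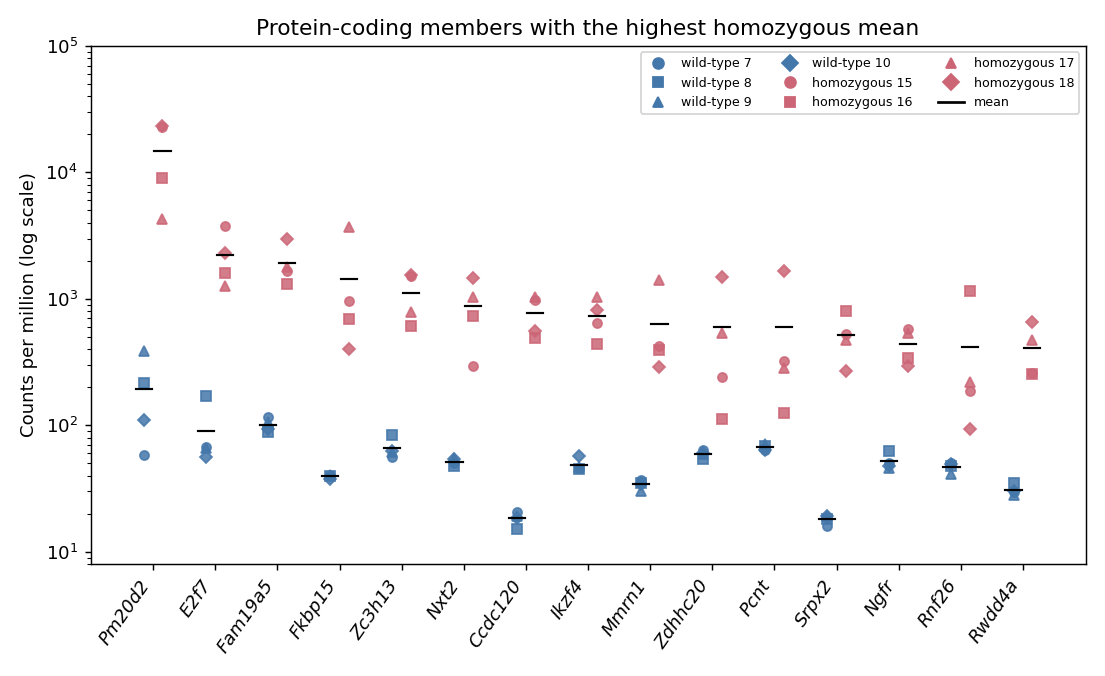
CPM (log axis) of the 15 protein-coding members with the highest homozygous mean, one point per library (blue wild-type, red homozygous, one marker shape per replicate) and a black bar for the group mean. No wild-type point reaches its gene's homozygous points, which the selection rule required, and the homozygous points of Pm20d2, Fkbp15, Mmrn1, Zdhhc20, Pcnt and Rnf26 are spread over a wide range.

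RefSeq (GRCm38.p6) promoter windows, from 250 bases before to 50 bases after an annotated start, were available for 83 members, with 92 windows in all, and were searched on both strands for 6 motifs. The GC box GGGCGG, bound by factors of the Sp family, was found in 32 member windows, or 34.8%, against 50.8% of all 19073 windows. TATAAA, the TATA box core, was in 13% of member windows and 10.3% of all windows, and the E-box CACGTG in 5.43% and 8.48%. TGATGCAA, an amino acid and stress response element bound by Atf4, was in 1 member window (Mmrn1, 1.09%) against 0.697% of all windows. The cyclic AMP response element TGACGTCA was in 0 member windows and 2.44% of all windows, and the endoplasmic reticulum stress element in 0 and 0.131%. A match is a string of letters, and one motif can overlap another; no binding was measured here.

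The 250 bases upstream of 3 members show the range, from the most abundant member to a GC-rich and an AT-rich start, with matches on either strand in capitals (GGGCGG or CCGCCC for the first pair, TATAAA or TTTATA for the last). The windows are chr4:33189738-33189987 (minus strand) for Pm20d2, chr10:110745189-110745438 (plus strand) for E2f7 and chr7:102876872-102877121 (plus strand) for the olfactory receptor gene Olfr568.
Pm20d2: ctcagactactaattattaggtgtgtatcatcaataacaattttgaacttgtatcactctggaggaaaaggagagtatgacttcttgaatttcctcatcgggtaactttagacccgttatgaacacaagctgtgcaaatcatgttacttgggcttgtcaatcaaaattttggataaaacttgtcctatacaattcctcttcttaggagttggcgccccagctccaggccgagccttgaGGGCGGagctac
E2f7: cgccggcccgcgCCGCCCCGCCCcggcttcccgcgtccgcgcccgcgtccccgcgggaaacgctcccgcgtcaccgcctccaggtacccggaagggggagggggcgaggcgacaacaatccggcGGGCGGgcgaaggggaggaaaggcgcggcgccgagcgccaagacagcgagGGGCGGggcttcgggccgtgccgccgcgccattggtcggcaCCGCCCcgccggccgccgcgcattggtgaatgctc
Olfr568: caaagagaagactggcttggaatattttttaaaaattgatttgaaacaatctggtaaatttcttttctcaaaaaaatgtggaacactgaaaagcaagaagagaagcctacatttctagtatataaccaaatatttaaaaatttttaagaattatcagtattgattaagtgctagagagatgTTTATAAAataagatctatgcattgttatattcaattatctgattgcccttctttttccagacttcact
Pm20d2 had a single GC box near its start and E2f7 had 5 matches, while Olfr568 had 2 overlapping TATA matches, so the 3 starts differ widely in sequence.

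Enzymes made up 13 members, with folds from 9.13 to 76.8. Pm20d2 (chr4:33174230-33189737, minus strand), a peptidase that removes lysine- and ornithine-containing dipeptides formed as by-products of carnosine synthesis, had 58.5, 216, 390.2 and 109.8 CPM in wild-type and 22764, 9102, 4300.0 and 23350.0 CPM in homozygous libraries. Its mean was 194 ± 147 CPM against 14879 ± 9647 CPM, a 76.8-fold difference, which was 116-fold without wild-type replicate 9. At 8113 CPM per kb in homozygous libraries it was by far the densest member; replicates 15 and 18 were high and replicate 17 low, and wild-type replicate 9 stood above the other wild-type libraries.

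Zdhhc20, a palmitoyltransferase that attaches fatty acids to cysteines of proteins, had 63.7, 54.6, 59.9 and 60.7 CPM in wild-type and 243, 112, 541 and 1501 CPM in homozygous libraries (10.0-fold, and 5.00-fold without homozygous replicate 18). Smpd4, a sphingomyelinase, was at 34.3, 29.7, 46.7 and 41.7 CPM and 541, 711, 224 and 105 CPM (10.4-fold). Galk2, which phosphorylates N-acetylgalactosamine, was at 16.5, 14.9, 18.1 and 14.2 CPM and 428, 71.4, 674 and 143 CPM (20.7-fold, and 13.5-fold without homozygous replicate 17). In each of these 3 genes the wild-type libraries lay close together and the homozygous libraries far apart, with a different library on top in each: replicate 18 for Zdhhc20, 16 for Smpd4 and 17 for Galk2. The remaining enzymes, Atp8b4, Pip5k1a, Gcnt7, 4832428D23Rik (now Mettl21e), Aoc2, Ces2e, Ptgis, Tktl2 and Nudt8, had homozygous means from 57.8 CPM (Nudt8) to 275 CPM (Atp8b4).

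Transcription, chromatin and RNA factors also numbered 13, with folds from 8.05 to 24.8. E2f7 (chr10:110745439-110787384, plus strand), an atypical E2F factor that represses cell-cycle genes, had 67.1, 171, 66.4 and 56 CPM in wild-type and 3789.9, 1609, 1257 and 2292 CPM in homozygous libraries (90.2 ± 54.4 against 2237 ± 1121 CPM, 24.8-fold). Zc3h13 (chr14:75284373-75344426, plus strand), a zinc-finger protein of the complex that methylates adenosines in messenger RNA, was at 56.6, 83.7, 61.2 and 63 CPM and 1510.5, 609, 791 and 1558 CPM (16.9-fold). For both genes homozygous replicates 15 and 18 were the high libraries, as they were for Pm20d2.

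Nxt2 (chrX:142226770-142239692, plus strand), a cofactor of the export of messenger RNA from the nucleus, was at 50.0, 47.3, 55 and 54.4 CPM in wild-type and 296, 738, 1029 and 1458 CPM in homozygous libraries (17-fold), lowest in replicate 15 and highest in replicate 18. Ikzf4 (chr10:128630843-128645991, minus strand), a zinc-finger factor of the Ikaros family best known from regulatory T cells, was at 45.8, 45.2, 46.7 and 57.7 CPM and 646, 438, 1042 and 812 CPM (48.8 ± 5.91 against 735 ± 256 CPM, 15-fold). The lowest homozygous library of Ikzf4 was several times its highest wild-type library. The other members of this group were Zbtb7c, Trmt6, Exosc9, Ddx52, Zfp944, Zfp668, Med15, Zmat5 and Neurog3, the last a proneural factor of endocrine pancreas development, with a homozygous mean of 59.6 CPM.

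A group of mostly secreted and matrix proteins gave 10 members, with folds from 8.20 to 28.4. Fam19a5 (chr15:87544299-87759364, plus strand), a small secreted protein made in the brain, had 116, 88.3, 106 and 92.9 CPM in wild-type and 1649, 1315, 1787 and 2992 CPM in homozygous libraries (101 ± 12.8 against 1936 ± 731 CPM, 19.2-fold). Mmrn1, a multimeric protein of platelets and endothelium, was at 36.6, 34.9, 30.4 and 34.5 CPM and 425, 395, 1414 and 291 CPM (18.5-fold, and 10.9-fold without homozygous replicate 17). Srpx2, a secreted protein involved in synapse formation, was at 16.1, 18.2, 19.1 and 19.3 CPM and 529, 800.4, 471 and 269 CPM (28.4-fold). Fam19a5 and Srpx2 were spread over all homozygous libraries, whereas replicate 17 alone held over 50% of the homozygous sum of Mmrn1.

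Sost, the Wnt inhibitor sclerostin, known mainly from osteocytes, was at 25.7, 38.2, 20.2 and 27.3 CPM in wild-type and 245, 78.4, 671 and 291 CPM in homozygous libraries (11.5-fold, and 7.36-fold without homozygous replicate 17). Mfrp and C1qtnf5 are neighbours on chromosome 9 that share all 1589 exon bases of C1qtnf5 on the same strand, and their counts were nearly the same in each library (1446 and 1448 counts in homozygous replicate 17, for example). They therefore stand for 1 signal in the table. Itgb6, Serpina10, Sprr2f and Spink4 completed the group.

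Receptors and signalling proteins gave 7 members. Ngfr (chr11:95568818-95587735, minus strand), the low-affinity receptor for neurotrophins, had 50.2, 62.8, 46.2 and 48 CPM in wild-type and 576, 342, 536 and 296 CPM in homozygous libraries (51.8 ± 7.5 against 437 ± 139 CPM, 8.44-fold). Htr7 (chr19:35958734-36057507, minus strand), a serotonin receptor that couples to stimulatory G proteins and is present in hippocampal neurons, was at 28.9, 27.9, 30.2 and 26.7 CPM and 187, 279.6, 224 and 281 CPM (28.4 ± 1.51 against 243 ± 45.9 CPM, 8.55-fold). Shb, an adaptor protein of receptor tyrosine kinases, was at 28.5, 23.7, 30.2 and 31.4 CPM and 236, 224, 331 and 309.9 CPM (9.68-fold). Htr7 and Shb were among the most even members of the whole set, with homozygous libraries within 1.5-fold and 1.48-fold of each other.

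Rnf26, a ubiquitin ligase of the endoplasmic reticulum membrane that positions endosomes, differed from these by resting largely on one animal. It was at 50.0, 47.9, 41.1 and 49 CPM in wild-type and 188, 1162, 222 and 93.8 CPM in homozygous libraries (8.86-fold, and 3.57-fold without homozygous replicate 16). Fshr, the receptor for follicle-stimulating hormone, had means of 12.6 and 189.8 CPM, the adhesion receptor gene Gpr111 (now Adgrf2) 7.09 and 217 CPM, and the ubiquitin ligase gene Dear1 (now Trim62) 0.827 and 23.8 CPM.

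A group of 3 members acts at the cytoskeleton or at organelles. Fkbp15 (chr4:62300342-62360548, minus strand), a relative of the FK506-binding proteins found at actin and endosomes, had 40.8, 39.4, 40.6 and 37.8 CPM in wild-type and 967, 695, 3727 and 400.4 CPM in homozygous libraries (39.7 ± 1.41 against 1447 ± 1537 CPM, 36.5-fold, and 17.3-fold without homozygous replicate 17). Ccdc120 (chrX:7731714-7750905, minus strand), a coiled-coil protein of centrioles, was at 20.5, 15.2, 19.3 and 18.7 CPM and 987, 493, 1032 and 558 CPM (18.4 ± 2.29 against 767 ± 281 CPM, 41.7-fold). Mtfr1, a regulator of mitochondrial fission, was at 12.3, 13.3, 14.2 and 16.4 CPM and 171, 296, 702 and 102 CPM (22.6-fold, and 13.5-fold without homozygous replicate 17). Ccdc120 combined a high fold with a wide gap, its lowest homozygous library lying 24 times above its highest wild-type library, and 1 member, the non-coding Gm1968, had a wider gap (28.5 times).

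Cell division and genome maintenance gave 6 members. Pcnt, pericentrin, a scaffold of the centrosome, had 63.9, 68.6, 71.4 and 64 CPM in wild-type and 323, 125, 282 and 1650.4 CPM in homozygous libraries (8.88-fold, and 3.63-fold without homozygous replicate 18). 1110034G24Rik, now Shld1, a subunit of the shieldin complex of DNA double-strand break repair, was at 11.2, 13, 11.1 and 13.3 CPM and 260.2, 156, 107 and 964 CPM (30.6-fold, and 14.3-fold without homozygous replicate 18). Replicate 18 was far above the other homozygous libraries for both. Mtbp, a replication origin factor first found as a partner of Mdm2, was at 15.9, 17.3, 15.4 and 15.4 CPM and 106, 212, 67 and 223 CPM (9.49-fold), and the mitotic gene Depdc1a at 25.7, 31.6, 18.8 and 23.4 CPM and 159.5, 155, 127 and 387 CPM (8.33-fold). Cenph, of the kinetochore, and Gins1, of the replicative helicase, were the other members.

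Genes known from immune cells or from immune defence gave 10 members, with folds from 8.03 to 29.7. Gpr183, an oxysterol receptor that guides B cells, had 15.3, 16.7, 12.9 and 22.6 CPM in wild-type and 134, 816, 76.6 and 64.5 CPM in homozygous libraries (16.2-fold, and 5.43-fold without homozygous replicate 16). Clec2h, a C-type lectin, was at 26.7, 11.8, 16 and 14.6 CPM and 272, 164, 493 and 713 CPM (23.8-fold). Klrb1c, the natural killer cell antigen NK1.1, was at 11, 15.5, 11.3 and 11.7 CPM and 87.1, 482, 74.1 and 25.9 CPM (13.5-fold, and 5.05-fold without homozygous replicate 16). Gpr183 and Klrb1c had their high value in the same animal, replicate 16, whereas Clec2h was highest in replicate 18.

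Dock8, a gene known for its part in immune cell migration, was at 25.9, 22.4, 25.5 and 23 CPM in wild-type and 293, 299.9, 79.9 and 104 CPM in homozygous libraries (8.03-fold), with replicates 15 and 16 high. Gzmb, Myd88, Tapbpl, Defb23, Cfd and Ear1 completed the group, at homozygous means from 6.08 CPM (Ear1) to 105 CPM (Gzmb). Of 5 markers of microglia and blood leukocytes, none of them a member, Ptprc and Cd3e were called higher and 1 lower, and their summed level ran from 61.6 to 86.6 CPM in wild-type and from 112 to 121 CPM in homozygous libraries. None of the 5 was at 0 in all libraries. The part of these cells in the values above was not tested.

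Genes best known from germ cells gave 6 members. Stra8 (chr6:34920163-34939344, plus strand), which retinoic acid switches on at the entry into meiosis, had 8.16, 20.6, 8.89 and 12.5 CPM in wild-type and 399, 190.4, 307 and 111 CPM in homozygous libraries (20.1-fold). Ccdc42, needed for the sperm head and tail, was at 26.5, 81.3, 14.1 and 10.3 CPM and 577, 143, 231 and 156 CPM (8.38-fold, 5.35-fold without homozygous replicate 15 and 16.3-fold without wild-type replicate 8). Cox8c, the testis form of a cytochrome c oxidase subunit, was at 4.18, 2.12, 3.71 and 3.69 CPM and 68.5, 75.7, 100.2 and 117 CPM (26.4-fold). Cox8c was among the more even members in homozygous animals, while for Ccdc42 wild-type replicate 8 and homozygous replicate 15 stood high.

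Izumo4, a relative of the sperm-egg fusion protein Izumo, was at 15.3, 14.9, 13.5 and 11.7 CPM in wild-type and 63.6, 35.4, 286 and 145 CPM in homozygous libraries (9.57-fold, and 5.87-fold without homozygous replicate 17). 2410076I21Rik, now Rec114, a factor of meiotic DNA breaks, was the most even member of the whole set, with homozygous libraries within 1.31-fold, and 1700007G11Rik, now Cfap299, was the last of this group. Of 7 germ cell markers in the table, 4 could be tested and 2 were called higher, Sycp3 and the member Stra8 itself, the former not without wild-type replicate 7 (edgeR adjusted p = 0.0565). The summed level of the list ran from 38.6 to 51.9 CPM in wild-type and from 147 to 434 CPM in homozygous libraries, where Stra8 made up most of it. No marker of the list was at 0 in all libraries.

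Chemosensory receptor genes gave 11 members, with folds from 8.89 to 83.6. These G protein-coupled receptors detect odours, pheromones and bitter taste, and each is normally used by a small subset of sensory cells. Olfr979 had 3.19, 1.82, 1.48 and 2.87 CPM in wild-type and 264, 164, 292 and 63 CPM in homozygous libraries (83.6-fold). Olfr1303 was at 4.38, 5.76, 4.00 and 7.18 CPM and 76.4, 75.4, 103 and 27.1 CPM (13.2-fold), and Olfr568 at 1.39, 3.34, 1.93 and 1.44 CPM and 20.5, 17.8, 35.7 and 70.9 CPM (17.9-fold). All 3 were above every wild-type library in each homozygous animal, as the rule required, and replicate 18 was the lowest for Olfr979 and Olfr1303 but the highest for Olfr568.

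Olfr430 was different. It was at 4.38, 2.73, 2.82 and 4.72 CPM in wild-type and 13.8, 584, 13.2 and 5.18 CPM in homozygous libraries, so its 42.1-fold difference became 2.93-fold without homozygous replicate 16, and its lowest homozygous library stood 1.10 times above its highest wild-type library. Olfr2, Olfr47, Olfr1036, Olfr1208, Vmn1r89, Vmn2r41 and Tas2r140 had homozygous means from 9.25 CPM upward. Receptor genes of this kind have close copies, and no source used here says how reads were shared among such copies, so the identity of these members is uncertain.

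Non-coding RNAs were 16 long non-coding RNAs and 2 microRNAs; long non-coding RNAs were 13.8% of the members and 6.26% of the annotated genes tested. 8430422H06Rik had the highest fold of the set, at 2.99, 1.82, 2.37 and 3.28 CPM in wild-type and 329, 2635, 39.1 and 223 CPM in homozygous libraries (308-fold, and 75.3-fold without homozygous replicate 16). 4930523O13Rik was at 5.18, 69.2, 6.37 and 12.9 CPM and 1362, 3636, 97.2 and 153 CPM (56-fold, 22.9-fold without homozygous replicate 16 and 161-fold without wild-type replicate 8), and 3110021A11Rik at 3.98, 3.64, 3.56 and 4.1 CPM and 61.6, 684, 27.1 and 24.1 CPM (52.1-fold, and 9.84-fold without homozygous replicate 16). In these 3 members replicate 16 held most of the homozygous counts.

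Gm1968, in contrast, was at 5.97, 6.37, 7.26 and 7.39 CPM in wild-type and 257, 211, 211 and 597 CPM in homozygous libraries (47.3-fold), with every homozygous library far above the wild-type level. Gm16197, now Trp53cor1 and known as lincRNA-p21, a transcript induced by Trp53 beside Cdkn1a, was at 19.3, 30.3, 22.4 and 28.7 CPM and 265, 210.1, 295 and 307 CPM (10.7-fold) and was even among homozygous animals. Its neighbour Cdkn1a, the cell-cycle inhibitor gene 11797 bp away, rose: it had 20.4 ± 2.34 CPM in wild-type and 37.6 ± 6.19 CPM in homozygous libraries, a log2 fold change of 0.68 (SE 0.16, adjusted p = 0.00649, edgeR). On the other side Srsf3, 14057 bp away, fell (log2 fold change -0.61, SE 0.17, adjusted p = 0.0141, edgeR). Other members of this kind were 2610028E06Rik, 4931431C16Rik, 9430041J12Rik, Gm15663, Gm10865, Gm16861, 0610038L08Rik, C230035I16Rik, 2310050B05Rik and 1810013A23Rik.

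2610100L16Rik, now Mir124-2hg, is the host transcript of a copy of miR-124, an abundant neuronal microRNA. The host had 61.1, 77.1, 64.5 and 91.9 CPM in wild-type and 759, 285, 886 and 957 CPM in homozygous libraries. Mir124a-2, the entry for the hairpin within it on the same strand, went the other way, at 27.9, 69.5, 25.8 and 29.1 CPM in wild-type and 2.17, 5.23, 4.00 and 3.04 CPM in homozygous libraries (38.1 ± 21 against 3.61 ± 1.31 CPM, log2 fold change -3.62, SE 0.42, adjusted p = 0.000131, edgeR). For the host the selection rule required that the groups not overlap, so nothing is read from that. For Mir124a-2 they did not overlap either. The host and hairpin entries share 27 exon bases. Mir124a-2 is named here after its values were seen, and the library kit's recovery of RNAs as short as a mature microRNA was not tested.

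Among the microRNA members, Mir3968 (chr11:115447961-115448060, minus strand) had 0.597, 1.21, 0.445 and 2.26 CPM in wild-type and 28.6, 128, 12.3 and 42.3 CPM in homozygous libraries (46.8-fold, 24.6-fold without homozygous replicate 16 and 70.2-fold without wild-type replicate 10). Its wild-type counts summed to 21 over 4 libraries. RefSeq gives 1 mature sequence for it, at chr11:115447969-115447989 of GRCm38.p6, shown because this entry is short enough to be given whole, with the seed (bases 2 to 8) in capitals.
Mir3968: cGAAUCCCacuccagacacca
No other mature mouse microRNA of the RefSeq table has this seed. The hairpin lies on the opposite strand of 4933422H20Rik and shares 100 exon bases with it; that gene rose with a log2 fold change of 0.83 (SE 0.23, adjusted p = 0.0149, edgeR), and without a stated strand setting the reads of both cannot be told apart. Mir467d (chr2:10507630-10507714, plus strand), within Sfmbt2, was at 0.996, 0.303, 0.148 and 0.205 CPM and 6.7, 3.08, 27.7 and 11.6 CPM, from 8 wild-type counts in all (29.7-fold, 17.2-fold without homozygous replicate 17 and 56-fold without wild-type replicate 7).

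The remaining members were 16 proteins of less established role and 3 entries with no match in the annotation. Rwdd4a led the first, at 29.5, 34.9, 28.3 and 30.4 CPM in wild-type and 257, 253, 477 and 661 CPM in homozygous libraries (13.4-fold). With it stood Dusp27, Klhdc8b, Gm4847, Tm6sf1, Antxrl, Tmem140, AU015836, Lrrc42, 4921504E06Rik, 4930444P10Rik, Ceacam14, 4930524E20Rik, 1600014C23Rik, Phgr1 and E330014E10Rik. Of the unmatched entries, C330011F03 was at 10.6, 12.7, 11.1 and 11.5 CPM and 955, 304, 230.3 and 583 CPM (45.1-fold), and C130039O16Rik and BC061194 also met the rule.

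The members were far more uneven among homozygous animals than other genes. The highest homozygous library was a median of 4.09 times the lowest (range 1.31 to 113), whereas the median over all genes tested was 1.49. Within wild-type libraries the same ratio had a median of 1.49 over the 115 members counted in all 4, beside 1.41 for all genes. The ratio reached 4 for 59 members (2.37% of all genes tested) and 10 for 24 members (0.293%), and in wild-type libraries it reached 4 for 6 members. Among 3439 other genes with a homozygous mean in the middle range of the members (63.8 to 323 CPM) the median ratio was 1.36, against 4.21 for the 58 members in that range. Since 1 very high library raises both the mean that the rule used and the ratio, the spread is given as a description.

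**Figure D2:**
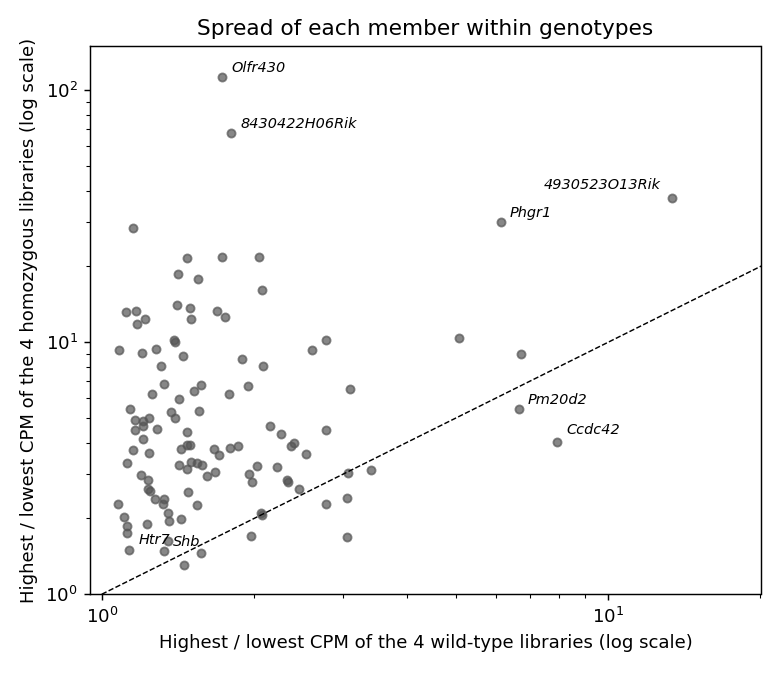
Ratio of the highest to the lowest CPM among the 4 homozygous libraries (vertical, log axis) against the same ratio among the 4 wild-type libraries (horizontal, log axis), one point per member for the 115 members counted in every wild-type library; the dashed line marks equal ratios. Most members lie above the line, with Olfr430 at 113 and 8430422H06Rik at 67.5, while Htr7 and Shb lie near 1.5.

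The coefficient of variation gave the same picture, with a median of 63.4% in homozygous and 18.5% in wild-type libraries for members and 17.9% and 15.2% for all genes tested. It was larger in the homozygous group for 102 members, and for 59.0% of all genes. No single animal was high throughout: the highest homozygous library was replicate 15 for 13 members, 16 for 39, 17 for 28 and 18 for 36, and the lowest was replicate 15 for 14, 16 for 37, 17 for 36 and 18 for 29. Over all genes tested the highest library was replicate 15 in 24.7%, 16 in 28.9%, 17 in 25.2% and 18 in 21.2%, and the lowest was replicate 15 in 13.6%, 16 in 29.2%, 17 in 25.9% and 18 in 31.2%. Different members were thus high in different animals.

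In 47 members 1 library held over 50% of the homozygous sum. It was replicate 16 for 22 members, among them Rnf26, Trmt6, Exosc9, Gpr183, Fshr, Klrb1c, Olfr430 and Med15. Replicate 17 was that library for 15 (Fkbp15, Mmrn1, Galk2, Sost, Mtfr1, Ddx52 and others), replicate 18 for 8 (Zdhhc20, Pcnt, 1110034G24Rik, Zfp944, Gm15663, Itgb6, Gm4847 and Antxrl) and replicate 15 for 2 (Ccdc42 and 1600014C23Rik). When each library was left out in turn, 66 members stayed at least 8-fold higher throughout and 50 did not, the lowest values being 1.66-fold for Med15, 2.93-fold for Olfr430 and 3.18-fold for AU015836, each without replicate 16. Without replicate 16, 95 members kept an 8-fold difference, and without replicates 15, 17 and 18 it was 110, 103 and 103.

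**Figure D3:**
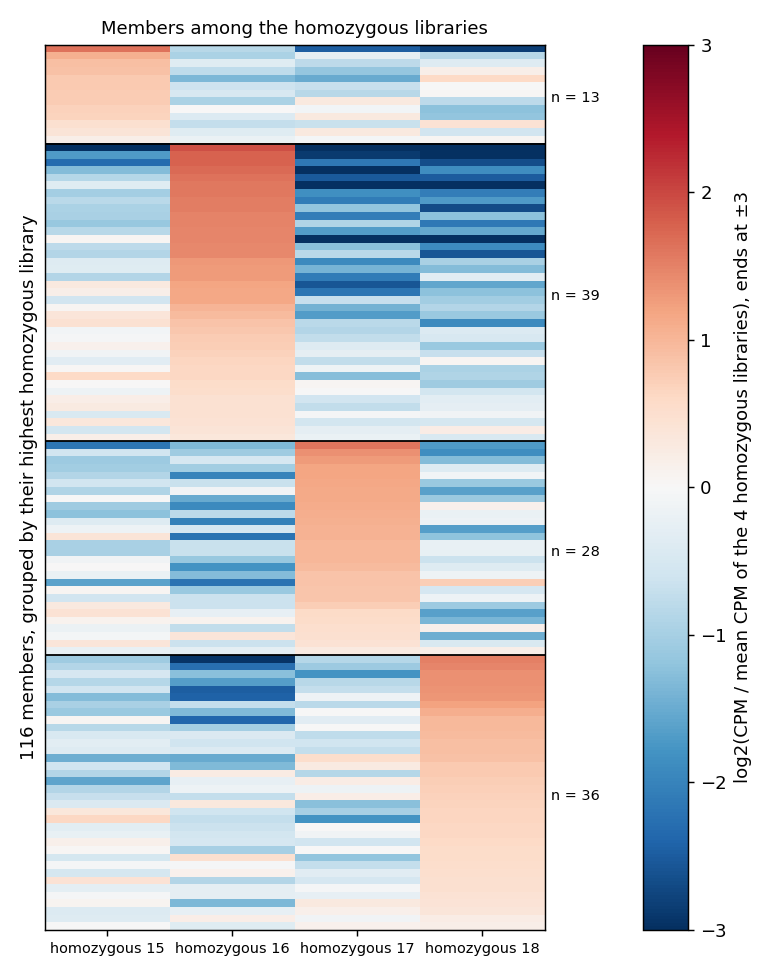
Heat map of log2(CPM divided by the member's mean over the 4 homozygous libraries), one row per member for all 116, one column per homozygous library, colours ending at 3 in either direction. Rows are grouped by the library in which the member was highest (13, 39, 28 and 36 members), so the red blocks along the diagonal come from the sorting; their strength shows how far 1 library stood out, and many rows hold a single dark cell.

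Members were spread over the genome. Of 113 with a position, 15 lay on chromosome 2, which holds 8.22% of the annotated genes tested, and none lay on Y. Chromosome 5, which carries Wfs1, had 3; the nearest, 4931431C16Rik, starts 1.38 Mb from Wfs1. Protein-coding genes were 81.9% of the members and 91.3% of the annotated genes tested. Members had a shorter exon length (median 2915 bp, against 3720 bp for all genes) and fewer exons (6 against 8 exon blocks). GC content (48.6% against 49.1%) was near that of all genes.

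Neighbouring genes, which the rule did not use, were compared between genotypes with edgeR. The nearest gene on either side within 100 kb that was no member and did not overlap gave 172 tested genes, of which 37 (21.5%) were called higher and 45 (26.2%) lower, beside 20.7% and 20.4% of all genes tested. Their median log2 fold change was 0.08, against 0.05 for all genes. By the fitted log2 fold change 12 were called at least 2-fold higher, beside 1508 of all 20478 genes tested. None was called at least 8-fold higher. Members were left out here, and only 106 of all genes tested reached 8-fold, so nothing is read from that. Within 20 kb, 16 of 93 (17.2%) were called higher and 27 (29.0%) lower. The share of neighbours called higher was close to the background at both distances.

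Gene by gene, the members named above sat between neighbours of either direction. Beside Pm20d2, Srsf12, a splicing factor gene, fell (log2 fold change -0.98, SE 0.20, adjusted p = 0.00286, edgeR) and Gabrr1, a GABA receptor subunit gene, had a log2 fold change of 0.38 (adjusted p = 0.122). Beside Fkbp15 the copper transporter genes Slc31a1, 179 bp away, and Slc31a2 both rose, with log2 fold changes of 0.87 and 1.09 (adjusted p = 0.00229 and 0.0277, edgeR). The call of Slc31a2 was lost without wild-type replicate 7, 8 or 9 or homozygous replicate 16 (edgeR adjusted p = 0.0660, 0.0617, 0.0534 and 0.0623). Beside Ikzf4 the ribosomal protein gene Rps26 fell (log2 fold change -1.43, adjusted p = 0.00319, edgeR) and Suox rose (0.50, adjusted p = 0.0152), and beside Ccdc120 Praf2, 650 bp away, fell (-1.15, adjusted p = 0.00111). Larger neighbour differences also went both ways. Fmo9 beside Gm4847 and Col14a1 beside Mtbp rose, with log2 fold changes of 2.70 and 2.45 (adjusted p = 0.000170 and 2.97e-05, edgeR). Pde7a, 2291 bp from Mtfr1, rose as well (1.86, adjusted p = 6.14e-05, edgeR). Olfr434 beside Olfr47 and Olfr1037 beside Olfr1036 fell (-3.99 and -2.91, adjusted p = 2.73e-05 and 8.11e-05, edgeR). Of 77 members with a tested neighbour on both sides, 49 had 0, 25 had 1 and 3 had 2 called higher.

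Genes that overlap a member were counted in the same way. Some 31 members overlap another tested gene, and 33 overlapping genes were no members. Of those 33, 9 (27.3%) were called higher and 8 (24.2%) lower, beside 20.7% and 20.4% of all genes tested. None was called at least 2-fold higher by the fitted log2 fold change, beside 1508 of all 20478 genes tested. Reads of genes on opposite strands cannot be told apart here, as the strand setting is not known. 2410076I21Rik shares 344 exon bases with Nptn, a synaptic adhesion gene on the opposite strand that fell with a log2 fold change of -1.04 (SE 0.12, adjusted p = 0.000164, edgeR). Some 3 pairs of members overlap, all at the cluster of Rnf26, Mfrp and C1qtnf5, where Rnf26 was highest in replicate 16 and the other two in replicate 17. Smpd4 and Med15, 6380 bp apart on chromosome 16, were both highest in replicate 16, whereas 1110034G24Rik and Trmt6, 53152 bp apart, and Tmem140 and Stra8, 45217 bp apart, peaked in different animals.

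Family relatives, taken as genes sharing a member's symbol stem, were 385 tested genes for 44 members. Of these, 89 (23.1%) were called higher and 67 (17.4%) lower, beside 20.7% and 20.4% of all genes tested. None reached 8-fold by the fitted log2 fold change, but members were left out, so nothing is read from that. Without wild-type replicate 7, 59 relatives were called higher. Fewer of all genes tested were also called higher whenever 1 library was left out, so nothing about the relatives is read from that drop. Of 7 other E2f genes none was called, and both other Pip5k genes were called lower. Pm20d1, the relative of Pm20d2, had a log2 fold change of -0.48 (SE 0.18, adjusted p = 0.0490, edgeR), a call lost without any 1 library other than wild-type replicate 7 (adjusted p from 0.0503 to 0.102). Ceacam genes (8 of 12 called higher, 0 lower), Clec genes (9 of 23, 0 lower) and Itgb genes (4 of 8, 0 lower) had more genes called higher than lower. Mediator subunits (2 higher and 8 lower of 29) and genes with the symbol stem Cox (1 higher and 6 lower of 13) had the reverse. The Cox stem is a match of symbols and is not a list of cytochrome c oxidase subunits. Of 29 bitter taste receptors 6 were called higher, a share like the 20.7% of all genes tested, and 0 lower, beside 20.4%. These families are examples, and whether any family differs from other genes was not tested. The largest difference was that of Exosc4, a subunit of the RNA exosome like the member Exosc9, with 55.1 ± 40.9 against 454 ± 612 CPM (log2 fold change 2.85, SE 0.83, adjusted p = 0.0184, edgeR), whose libraries overlapped between genotypes. Its call was lost without wild-type replicate 7 or 9 or homozygous replicate 16 (edgeR adjusted p = 0.0528, 0.0547 and 0.0564), and its log2 fold change was 1.24 without homozygous replicate 16 and 3.50 without wild-type replicate 8. With library totals in place of TMM scaling, 130 relatives were called higher and 47 lower, and the median of all genes moved from 0.05 to 0.25.

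**Figure D4:**
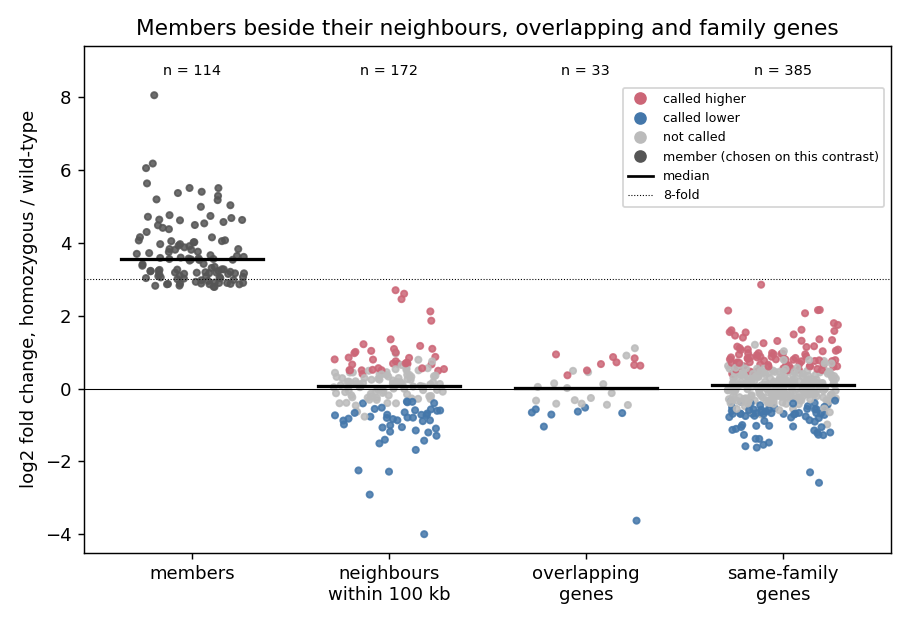
log2 fold change (homozygous over wild-type, edgeR) of the 114 members that could be fitted, their 172 neighbours within 100 kb, 33 overlapping genes and 385 same-family genes, one point per gene with horizontal jitter; black bars are medians, red and blue points were called higher and lower, grey points were not called, and the dotted line marks 8-fold. The members lie at 2.79 to 8.05 because they were chosen on this contrast, while the other 3 groups, which leave members out, centre near 0.

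The thresholds fell within a continuous range of values. Just inside 8-fold were Dock8 (8.03), Zmat5 (8.05) and AU015836 (8.09), and just outside AU022793 (7.97), Avpr1b (7.96) and Lmbr1l (7.92). Just inside a mean of 5 CPM were Spink4 (5.43 CPM), Ear1 (6.08 CPM) and E330014E10Rik (7.17 CPM), and just outside Olfr1380 (4.76 CPM), Bcl2a1b (3.39 CPM) and Defa-ps13 (1.8 CPM). Another 3 entries, Olfr330, Olfr837 and Exosc4, reached both means but overlapped between genotypes. Leaving out homozygous replicate 16 moves AU015836 to 3.18-fold and Spink4 to 4.37-fold, and without wild-type replicate 9 E330014E10Rik, with 6 wild-type counts in all, is at 53.2-fold.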

How the data were processed

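Ribosome-depleted total RNA of 8 hippocampi was, per the labels, converted to barcoded libraries (SOLiD Total RNA-Seq Kit) and read in pairs (50 and 35 bp) on a SOLiD 4 sequencer after pooling. For each gene symbol the authors deposited raw counts, as whole numbers that sum to between 3250949 and 6747411 per library; the submitters' processing notes name build mm10. No source used here gives the aligner, counting program, strand setting or gene models, and counts of overlapping genes or close copies may be shared. No count column lacked a sample (0 of them).

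CPM was computed on column sums to apply the selection rule. All 8 libraries were fitted with edgeR 4.0.16 in R 4.3.3 (filterByExpr, TMM scaling, quasi-likelihood test, no covariate), which tested 20478 genes, and calls were made at a Benjamini-Hochberg adjusted p under 0.05. The code was tested on simulated data. P-values measure the spread between these animals. Positions and gene kinds came from GENCODE M21 (110 members matched, 11 of them by an older symbol), 3 positions, the promoters and the microRNA sequence from RefSeq GRCm38.p6, and 3 members matched neither. Named members were the 15 protein-coding ones of highest homozygous mean, the 10 of largest fold with over 3 wild-type counts per library, up to 4 per role group, microRNAs, those at the thresholds and those of largest spread. The members, lists and tests were chosen with earlier results of these data known, and roles were assigned after the members were seen. Depth limits entries with few counts most: the sum of wild-type counts was 6 for E330014E10Rik and 2310050B05Rik. Alternatives tried were DESeq2 1.42.0 and its size factors, limma-voom (limma 3.58.1), library totals, other filters and thresholds, a shorter neighbour distance and leaving out each library. Python 3.11.15, pandas 2.3.3, NumPy 2.4.6 and matplotlib 3.10.9 made tables and figures.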

Additional observations from a re-analysis of the deposited data

Results flagged for a closer look

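For the 48 named members, each genotype's 4 libraries were searched for a highest or lowest library whose gap to the nearest other, as a share of the group's range, exceeded Dixon's critical value for 4 samples. This held for 18 of 96 groups. Chance flags about 1 group in 20, but the genes were chosen on these same values, some of them for their spread, so the count is not read against that share. In all 13 homozygous groups found, the library that stood apart was the highest, a direction that the selection rule favours. Homozygous replicate 16 stood apart for 8430422H06Rik (2635 CPM), Rnf26 (1162 CPM), Gpr183 (816 CPM), 3110021A11Rik (684 CPM), Olfr430 (584 CPM), Klrb1c (482 CPM), AU015836 (381 CPM) and Spink4 (14.8 CPM). Replicate 17 stood apart for Fkbp15 (3727 CPM) and Mmrn1 (1414 CPM), and replicate 18 for Pcnt (1650.4 CPM), Gm1968 (597 CPM) and Depdc1a (387 CPM). Among wild-type groups, replicate 8 was high for E2f7 (171 CPM), 4930523O13Rik (69.2 CPM) and Klrb1c (15.5 CPM), replicate 10 was high for Ikzf4 (57.7 CPM), and replicate 9 was low for Spink4 (0.296 CPM). What sets these animals apart was not tested.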

How the results depend on the processing

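No paired analysis was possible because the genotypes share no replicate number (7 to 10 and 15 to 18). The rule gave 116 members on library totals, 97 with TMM-scaled and 94 with DESeq2-scaled sizes (all among the 116), 88 by the fold of medians (86 shared), 112 at a mean of 10 CPM, 119 with overlap allowed, and 106 to 122 without one library (95 to 113 shared); the median spread among homozygous libraries was 4.09 to 4.14 over scalings. With library totals in place of TMM, 6645 genes were called higher and 2412 lower (4241 and 4168 with TMM), 52 neighbours higher and 33 lower, and 130 relatives higher and 47 lower. Over the other scalings, filters and tools, 32 to 40 neighbours and 82 to 97 relatives were called higher. Within 20 kb, 43 neighbours were called, 16 higher and 27 lower, with fewer genes tested. Leaving out 1 library gave 6489 to 8229 calls (higher 3178 to 3995, lower 3311 to 4253), 25 to 34 neighbours higher and 39 to 46 lower, and 59 (without wild-type replicate 7) to 85 relatives higher and 59 to 69 lower. Fitted log2 fold changes of named members were set against the SD of log2 CPM over the 4 homozygous libraries. Of the values without 1 library, 364 moved by less than this SD and 3 by more. Under another scaling, filter or tool 275 moved by less and 1 by more. The SD includes the library left out, which widens it, so these counts do not show that the folds are stable. Without homozygous replicate 16, Olfr430 moved from 5.19 to 1.35, 3110021A11Rik from 5.50 to 3.10 and Rnf26 from 2.95 to 1.62. Without homozygous replicate 18, Pcnt moved from 2.97 to 1.63. The rule itself fixes the direction without 1 library. Quality weights in limma-voom moved 10 named members by over 1.5 times, among them Olfr430 from 5.19 to 2.19, 3110021A11Rik from 5.50 to 3.77, 8430422H06Rik from 8.05 to 6.35 and Rnf26 from 2.95 to 2.07 on the log2 scale. The causes were not tested.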
